A study of Mus musculus with 6 samples.

Results

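The genes described here encode the sterol regulatory element-binding proteins (SREBPs) and the proteins that process them. They are Srebf1, Srebf2, Scap, Insig1, Insig2, Mbtps1 and Mbtps2, chosen by gene symbol from a table of counts per gene. All 7 were among the 24421 genes of that table, and all 7 were among the 11932 genes with enough counts to be tested. The RNA came from spleen and lymph node regulatory T cells (Tregs) of mice, a CD4 T cell type that depends on the transcription factor Foxp3. The 3 Srebp2cKO libraries (replicates 6, 7 and 8) came from Srebp2FL/FL-Foxp3YFPCRE+/- animals. The 3 Srebp2WT libraries (replicates 1, 3 and 5) came from Srebp2WT/WT-Foxp3YFPCRE+/+ animals. Both genotypes thus carried Cre recombinase with yellow fluorescent protein at Foxp3, the gene that drives it in Tregs, but in different allele dose, which cannot be told apart from the Srebf2 genotype. The sources used here do not give ages, the sort gate, the floxed exons or the number of animals behind a library. No label ties each library to its own animal, so p-values measure the spread between these libraries, which may be technical.

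SREBPs are made as membrane proteins of the endoplasmic reticulum, bound to the escort protein SCAP. When membrane cholesterol is high, INSIG proteins hold SCAP in place. When it is low, SCAP carries the SREBP in COPII vesicles to the Golgi, where the site-1 protease (Mbtps1) and then the site-2 protease (Mbtps2) cut it. The released part enters the nucleus and activates genes of lipid synthesis and uptake. SREBP2 (Srebf2) acts mainly on cholesterol genes and the SREBP1 forms (Srebf1) mainly on fatty acid genes. Insig1 is itself an SREBP target, which closes a feedback loop, whereas Insig2 depends less on SREBPs in liver. T cells raise this pathway when they are activated and divide.

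The promoter sequences below are shown because SREBPs bind sterol regulatory elements next to sites for NF-Y and Sp1, and because Srebf2, Srebf1 and Insig1 had the lowest fold changes of the genes described here while Insig2 had a fold change near 0. They are the 250 bases before the transcription start on GRCm38.p6 from RefSeq, which listed promoters for all 7 genes. The gene positions given below come from another annotation, GENCODE, whose starts differ. There Srebf2 starts at 82147181 and Insig1 at 28071363, so the last bases of their windows lie within those genes. Srebf1 had 3 listed starts, Insig2 had 3 and Scap had 2. For Srebf1 and Insig2 the start farthest downstream is printed. Capitals mark TCACCC, the core of a sterol regulatory element, the E-box CACGTG, the CCAAT box CCAAT and the GC box GGGCGG, on either strand.
Srebf2 (chr15:82147019-82147268, + strand): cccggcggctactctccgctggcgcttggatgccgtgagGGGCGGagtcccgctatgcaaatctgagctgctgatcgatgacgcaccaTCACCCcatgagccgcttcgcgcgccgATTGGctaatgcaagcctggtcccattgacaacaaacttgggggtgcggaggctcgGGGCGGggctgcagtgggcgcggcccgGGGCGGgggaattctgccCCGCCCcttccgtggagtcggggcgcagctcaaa
Insig1 (chr5:28071162-28071411, + strand): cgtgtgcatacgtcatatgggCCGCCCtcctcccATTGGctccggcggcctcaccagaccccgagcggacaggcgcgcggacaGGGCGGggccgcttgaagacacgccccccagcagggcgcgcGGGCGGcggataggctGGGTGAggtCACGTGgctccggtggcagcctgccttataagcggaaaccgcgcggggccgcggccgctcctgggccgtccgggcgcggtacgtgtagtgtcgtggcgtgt
Srebf1 (chr11:60210472-60210721, - strand): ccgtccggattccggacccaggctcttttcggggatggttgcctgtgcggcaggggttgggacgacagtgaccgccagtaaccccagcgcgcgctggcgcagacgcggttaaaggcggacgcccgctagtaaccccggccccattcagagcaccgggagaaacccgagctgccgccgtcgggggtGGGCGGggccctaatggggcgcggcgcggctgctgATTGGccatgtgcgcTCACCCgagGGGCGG
Insig2 (chr1:121327679-121327928, - strand): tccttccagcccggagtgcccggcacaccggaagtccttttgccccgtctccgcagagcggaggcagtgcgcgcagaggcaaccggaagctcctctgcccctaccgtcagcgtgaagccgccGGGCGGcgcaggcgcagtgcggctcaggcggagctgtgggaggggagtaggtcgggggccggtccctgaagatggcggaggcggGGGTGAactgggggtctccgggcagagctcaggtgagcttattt

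The TCACCC core stood in all 4 printed windows, at 162 bases before the start in Srebf2, 110 in Insig1, 15 in Srebf1 and 44 in Insig2. Of the windows not printed, 1 of Insig2 held it, at 84 bases, and those of Srebf1, Scap, Mbtps1 and Mbtps2 did not. It was also in 13.8% of the 32851 mouse promoters searched over the same length. Srebf2, Insig1 and Srebf1 each also held a CCAAT box and GC boxes, which are in 33.8% and 32.7% of all promoters. Besides its TCACCC core, the printed Insig2 window held a GC box only. Another Insig2 window, not printed, held CCAAT boxes at 136, 46 and 29 bases before its start, and 1 of Srebf1 held a CCAAT box at 166. Insig1 alone of the 4 printed windows held the E-box (6.02% of all promoters), 3 bases after its TCACCC core. A Scap window, not printed, held an E-box at 40 bases. GC boxes were also in unprinted windows of Srebf1, Insig2, Scap and Mbtps1. The longer element TCACNCCAC, in 1.05% of promoters, was in no window of the 7 genes. These letters were chosen after the promoters had been read, and a match is a description of the sequence only.

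Depth was similar between genotypes, at 13918321 to 17249898 counts in Srebp2cKO and 14694290 to 15547538 in Srebp2WT libraries. Over all tested genes 283 were higher and 506 lower in Srebp2cKO (edgeR, false discovery rate of 0.05), or 184 higher and 570 lower when scaled to total counts alone. Leaving out 1 library moved the total of 789 calls to between 167 (without Srebp2WT replicate 1) and 1487 (without Srebp2cKO replicate 6). Fold changes followed the GC content of transcripts (Spearman rho -0.50 across 11459 genes, which share the libraries), so the results for the 7 genes are also given with that trend removed from every library. Foxp3 stood at 435 ± 27.0 CPM (the count scaled to library size with TMM factors) in Srebp2cKO and 454 ± 11.5 CPM in Srebp2WT libraries (mean ± SD of n = 3 libraries throughout, edgeR adjusted p = 0.611), so the marker that defines Tregs was present in both. Summed markers of other cells differed between genotypes: 6 B cell genes summed to 25.8 to 34.5 CPM in Srebp2cKO and 56.4 to 79.4 CPM in Srebp2WT libraries, and 6 myeloid genes to 37.1 to 43.0 and 53.9 to 88.2 CPM in the same order. These sums came mainly from Cd74 (up to 769 counts in a library), Cd22 (249), Cd79b (208) and Cybb (1299), while at most 2 counts of Ms4a1, 5 of Lyz2 and 3 of Csf1r were found. Natural killer markers summed to 0.79 to 0.986 CPM in Srebp2cKO and 1.61 to 2.77 CPM in Srebp2WT libraries, with Ncr1 at 0. In the other direction, CD8 T cell markers summed to 8.7 to 10.3 CPM in Srebp2cKO and 7.01 to 7.59 CPM in Srebp2WT libraries. This sum was mainly Cd8b1 (up to 137 counts in a library), with at most 14 counts of Cd8a. Stromal markers summed to 217 to 231 CPM in Srebp2cKO and 168 to 181 CPM in Srebp2WT libraries. Nearly all of this sum was Pecam1 (2538 to 3721 counts in a library), with at most 18 counts of Col1a1, 16 of Col1a2 and 0 of Pdpn. The stromal sum is thus a value for Pecam1 and does not show stromal cells. The erythroid sum overlapped, with at most 8 counts of a gene. In bulk RNA, fewer cells of a type and less RNA per cell cannot be told apart, and the part of these other cells in the results below was not tested.

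Srebf2, the targeted gene, lies on chromosome 15 from 82147181 to 82205379 (GRCm38, + strand), in 19 exon blocks that span 7184 bases when all transcripts are merged. It stood at 13.7, 12.7 and 10.7 CPM in Srebp2cKO and at 191, 192 and 172 CPM in Srebp2WT libraries. The genotypes were far apart, and 6.69% of the Srebp2WT mean was left. The log2 fold change was -3.91 (SE 0.11, edgeR adjusted p = 1.5e-08). Its GC content of 57.9% is in a range where other genes also leaned lower, yet of 773 tested genes within 1 point of it 0% had a lower log2 fold change. Removing the GC trend left a log2 fold change of -3.70 (95% interval -3.90 to -3.50). The microRNA gene Mir33, which lies within Srebf2 outside its exons (82198122 to 82198190), had 0, 0 and 1 counts in Srebp2cKO and 0, 0 and 1 in Srebp2WT libraries, too few for any comparison.

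**Figure D1:**
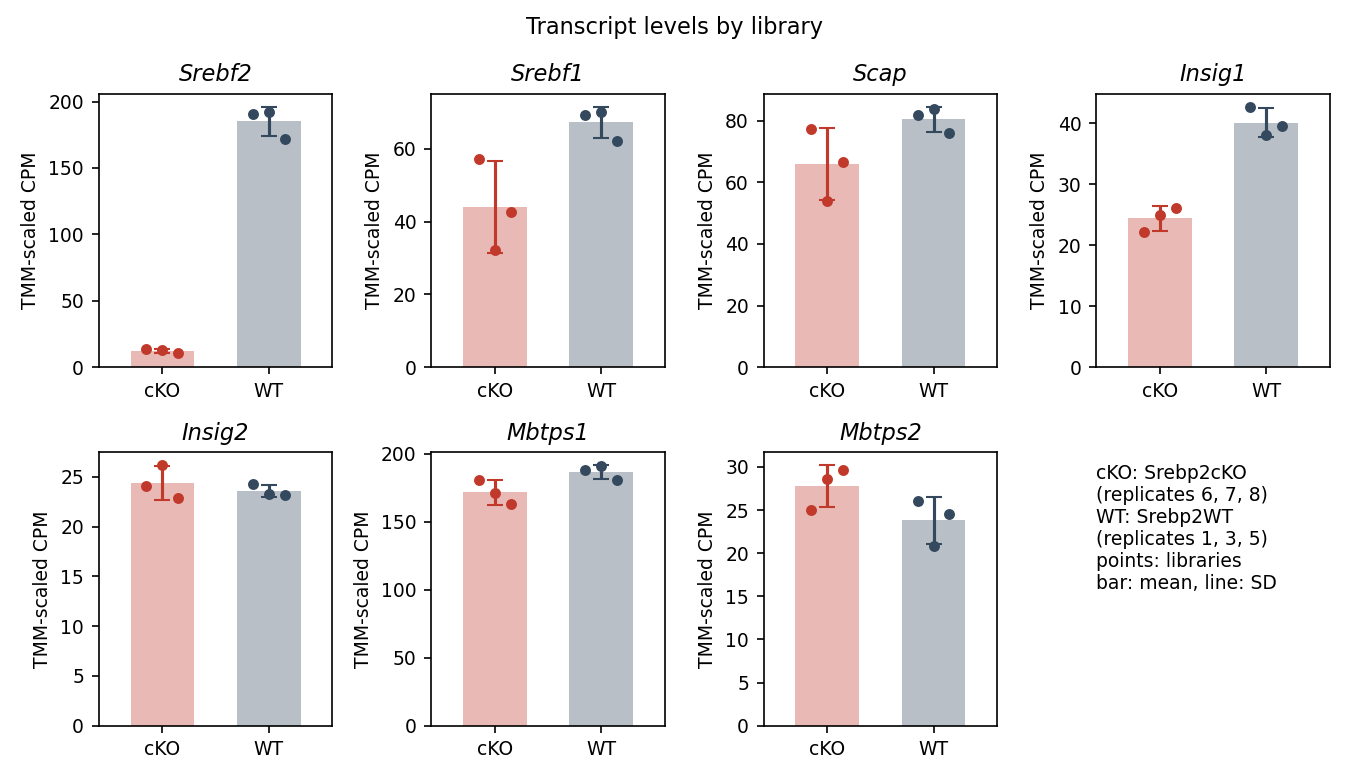
Transcript levels (y axis, TMM-scaled CPM) of the 7 genes in Srebp2cKO and Srebp2WT libraries, with each library as a point, the mean as a bar and the SD as a line (n = 3). Srebf2, Srebf1 and Insig1 have all Srebp2cKO libraries below all Srebp2WT libraries, and the other genes overlap.

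Besides the targeted gene, Insig1 fell and no other gene passed the test. Of the 7 genes, 2 were called lower, Srebf2 and Insig1, against 4.24% of all genes tested. None was called higher, against 2.37% of all genes. In the edgeR fit to all 6 libraries, no gene of the 7 with a positive fold change had an unadjusted p under 0.05. Without Srebp2cKO replicate 6, Mbtps2 had a log2 fold change of 0.29 (edgeR unadjusted p = 0.0349, adjusted p = 0.12). Srebf2 and Insig1 were also the 2 genes called with the GC trend removed, where 3.80% of all genes were lower and 1.94% higher. DESeq2 and limma-voom each called 3 lower and 0 higher, the third being Srebf1, which missed the edgeR threshold. DESeq2 called 11.8% of all genes (6.52% lower, 5.25% higher) and limma-voom 6.55% (4.23% lower, 2.32% higher). The genotypes did not overlap in 3 of the 7, all lower in Srebp2cKO, while 31.5% of all tested genes did not overlap, 15.5% lower and 16.0% higher. The median log2 fold change of the 7 was -0.29, and that of all genes was 0.00. With the GC trend removed these medians were -0.11 and 0.00. Srebf2 is the deleted gene, so its call is a check of the labels and not a result.

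Insig1, the endoplasmic reticulum protein that holds SCAP back when sterols are plentiful, lies on chromosome 5 from 28071363 to 28078662 (+ strand). It stood at 22.1, 25 and 26 CPM in Srebp2cKO and at 42.7, 38.0 and 39.5 CPM in Srebp2WT libraries. Every Srebp2cKO library was below every Srebp2WT library, with means of 24.4 ± 2.02 and 40.1 ± 2.41 CPM in that order. The counts behind these levels were 301, 387 and 446 in Srebp2cKO and 682, 590 and 584 in Srebp2WT libraries. Insig1 fell to 60.8% of its Srebp2WT level (log2 fold change -0.72, SE 0.10, 95% interval -0.93 to -0.50, edgeR adjusted p = 0.00349). The GC content of its longest transcript is 48.2%, where 1213 other tested genes within 1 point had a median log2 fold change of 0.03. Its log2 fold change with the GC trend removed was -0.74 (adjusted p = 0.00108). The gene kept its call in all 15 alternative settings, between -0.77 and -0.65.

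Insig2, the second INSIG protein, with the same hold on SCAP, lies on chromosome 1 from 121304353 to 121332589 (- strand). It stood at 24.1, 26.2 and 22.9 CPM in Srebp2cKO and at 24.3, 23.3 and 23.2 CPM in Srebp2WT libraries. These ranges overlap, and the log2 fold change was 0.05 with a 95% interval of -0.17 to 0.26 (edgeR adjusted p = 0.785). The interval leaves out a fall as large as that of Insig1, whose own interval ends at -0.50. The value for Insig2 was -0.04 with the GC trend removed (interval -0.24 to 0.15).

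The balance between the INSIG genes was then read within each library. Per kilobase of merged exons, Insig1 made up 50.7, 51.7 and 56.1% of the INSIG transcripts in Srebp2cKO and 66.4, 64.7 and 65.7% in Srebp2WT libraries. Every Srebp2cKO library was lower, with means of 52.8 ± 2.85% and 65.6 ± 0.857%, a difference of -12.7 points (exact two-sided permutation p = 0.1, the smallest possible for 3 against 3). In Srebp2WT libraries Insig1 (13 ± 0.780 CPM per kilobase) stood well above Insig2 (6.80 ± 0.174). In Srebp2cKO libraries their levels, 7.88 ± 0.652 and 7.02 ± 0.486 CPM per kilobase, lay closer.

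**Figure D2:**
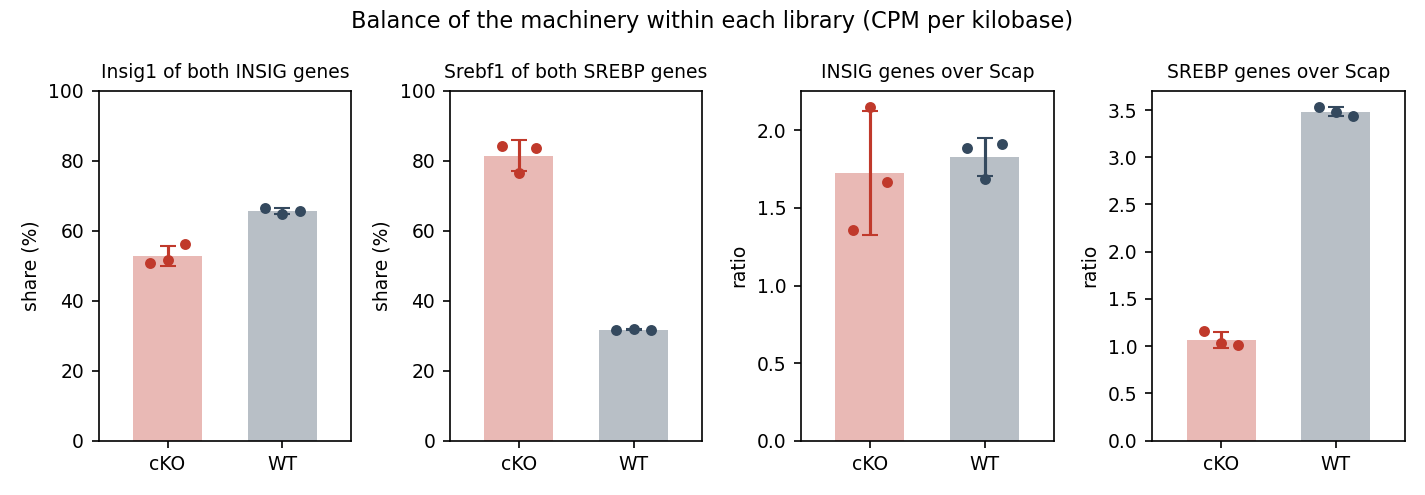
Shares (%) and ratios of members computed within each library from counts per kilobase, for Srebp2cKO and Srebp2WT libraries (points: libraries, bar: mean, line: SD, n = 3). The Insig1 share is lower in every Srebp2cKO library (50.7 to 56.1%, against 64.7 to 66.4%), and the ratio of INSIG to Scap overlaps between genotypes.

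Srebf1, the gene for the SREBP1a and SREBP1c forms, lies on chromosome 11 from 60199089 to 60222581 (- strand). It stood at 57.3, 32.2 and 42.7 CPM in Srebp2cKO and at 69.4, 70.2 and 62.3 CPM in Srebp2WT libraries. Every Srebp2cKO library was lower, but these libraries were spread over a wider range (44.1 ± 12.6 CPM) than the Srebp2WT libraries (67.3 ± 4.35 CPM). Its log2 fold change of -0.61 (SE 0.17), with a 95% interval of -0.98 to -0.24, missed the threshold (edgeR adjusted p = 0.0545). It passed with DESeq2 (adjusted p = 0.00447), limma-voom (0.0417), no filter on low counts (0.0136), scaling to total counts (0.047) and without Srebp2cKO replicate 6 (log2 fold change -0.84, adjusted p = 0.00931). After removal of the GC trend the log2 fold change was -0.41 (interval -0.68 to -0.14, adjusted p = 0.0805).

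The range of Srebf1 among Srebp2cKO libraries ran in the order of their GC slopes. The slope of log2 CPM on GC content, in log2 units per 10 points, was -0.52 in replicate 6, -0.78 in replicate 7 and -0.65 in replicate 8 of Srebp2cKO, and -0.38, -0.36 and -0.51 in replicates 1, 3 and 5 of Srebp2WT. Srebf1, with a GC content of 58.4%, was lowest in Srebp2cKO replicate 7, the library with the steepest slope. Of 664 tested genes within 1 point of its GC content, the median log2 fold change was -0.23 and 13.4% had a lower one than Srebf1. After the trend was removed, Srebf1 stood at 57.0, 37.6 and 46.2 CPM in Srebp2cKO and 63.1, 62.2 and 61.5 CPM in Srebp2WT libraries, still without overlap. The order of the Srebp2cKO libraries stayed the same, and their SD was 9.72 CPM, against 12.6 CPM as fitted. Whether the GC slopes had a part in this spread was not tested.

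Srebf1 was the larger part of the SREBP transcripts in Srebp2cKO libraries and the smaller part in Srebp2WT libraries. Its share per kilobase was 84.2, 76.4 and 83.6% in Srebp2cKO and 31.7, 31.8 and 31.5% in Srebp2WT libraries. This share contains the deleted gene and is given as a description with no test. On the CPM scale Srebf1 was not higher in any Srebp2cKO library than in any Srebp2WT library. The ratio of both SREBP genes to Scap was 1.07 ± 0.0822 in Srebp2cKO and 3.49 ± 0.0465 in Srebp2WT libraries, likewise a description.

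Scap, the sterol-sensing escort, lies on chromosome 9 from 110333288 to 110384950 (+ strand). It stood at 77.3, 53.9 and 66.7 CPM in Srebp2cKO and at 81.9, 83.7 and 75.9 CPM in Srebp2WT libraries. The genotypes overlapped through Srebp2cKO replicate 6. The log2 fold change was -0.29 (95% interval -0.55 to -0.03) and did not pass (edgeR adjusted p = 0.141), except without Srebp2cKO replicate 6 (-0.41, adjusted p = 0.0388). Scap has the highest GC content of the 7 genes, 59.1%, and 554 tested genes within 1 point of it had a median log2 fold change of -0.25. Removing the GC trend gave -0.06 (interval -0.23 to 0.11) and levels of 76.9, 63.6 and 72.6 CPM in Srebp2cKO and 73.9, 73.7 and 74.8 CPM in Srebp2WT libraries. An antisense transcript, 5830462I19Rik, overlaps 13.23% of the Scap exon bases, and whether the counting used strand is not stated in the sources used here.

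The ratio of both INSIG genes to Scap, per kilobase, was 1.36, 2.15 and 1.67 in Srebp2cKO and 1.89, 1.69 and 1.91 in Srebp2WT libraries. The genotypes overlapped and the difference of -0.102 did not pass (exact two-sided permutation p = 0.7). It was 0.0831 without Srebp2cKO replicate 6, -0.316 without Srebp2cKO replicate 7 and -0.475 with the GC trend removed.

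**Figure D3:**
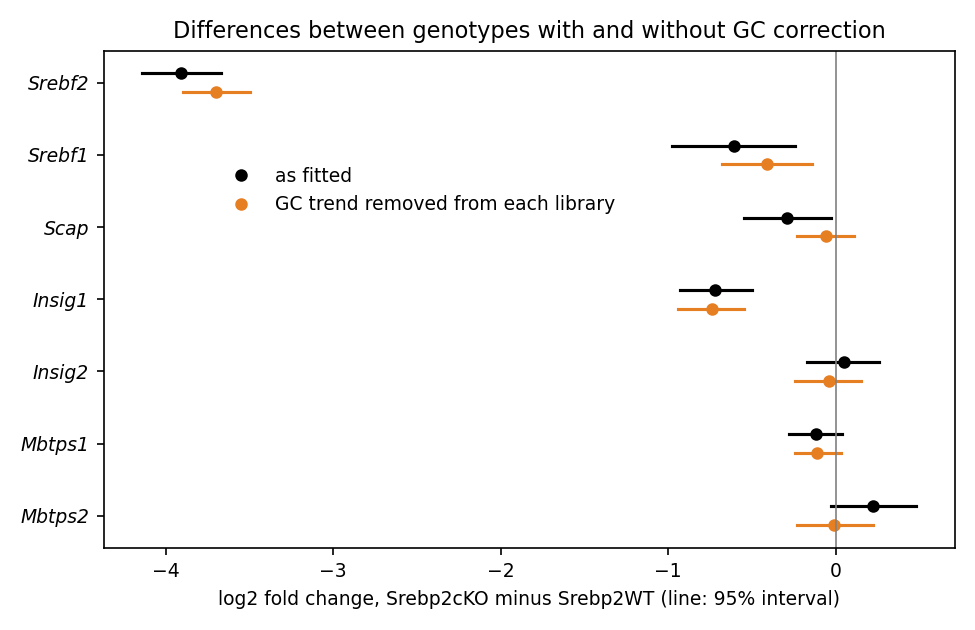
Log2 fold change of each gene, Srebp2cKO minus Srebp2WT (x axis), as fitted and with the GC trend removed from each library, with 95% intervals as lines. Srebf2 and Insig1 are well below 0 in both fits, Srebf1 is at -0.61 and -0.41, and the interval of Scap includes 0 only with the trend removed.

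The protease genes had small differences that did not pass. Mbtps1, the serine protease that makes the first cut in the Golgi, lies on chromosome 8 from 119508156 to 119558735 (- strand). It stood at 181, 171 and 163 CPM in Srebp2cKO and at 188, 191 and 181 CPM in Srebp2WT libraries. The highest Srebp2cKO library reached the lowest Srebp2WT library, and the log2 fold change was -0.12 (95% interval -0.28 to 0.04, edgeR adjusted p = 0.292). It was -0.11 with the GC trend removed (edgeR adjusted p = 0.326). Levels were then 181, 172 and 164 CPM in Srebp2cKO and 186, 190 and 181 CPM in Srebp2WT libraries, without overlap. The highest Srebp2cKO library lay just below the lowest Srebp2WT library, both 181 CPM as rounded. The share of all genes without overlap after this removal is not given here.

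Mbtps2, the metalloprotease that makes the second cut within the membrane, lies on chromosome X from 157535371 to 157598715 (- strand). It stood at 25, 28.6 and 29.7 CPM in Srebp2cKO and at 26, 20.8 and 24.6 CPM in Srebp2WT libraries. The ranges overlap, with a log2 fold change of 0.22 (95% interval -0.03 to 0.48, edgeR adjusted p = 0.221). Its GC content of 40.0% is the lowest of the 7, 632 tested genes within 1 point of it had a median log2 fold change of 0.23, and with the trend removed its value was -0.01. Yy2, a transcription factor gene on the same strand, shares all of its 2867 exon bases with exons of Mbtps2 transcripts, 28.37% of the Mbtps2 exon length. Yy2 was counted at 10 ± 1.07 CPM in Srebp2cKO and 8.54 ± 1.27 CPM in Srebp2WT libraries, with a log2 fold change of 0.23 (edgeR adjusted p = 0.356). The sources used here do not say how reads in the shared bases were assigned, and the count of Mbtps2 is uncertain.

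**Figure D4:**
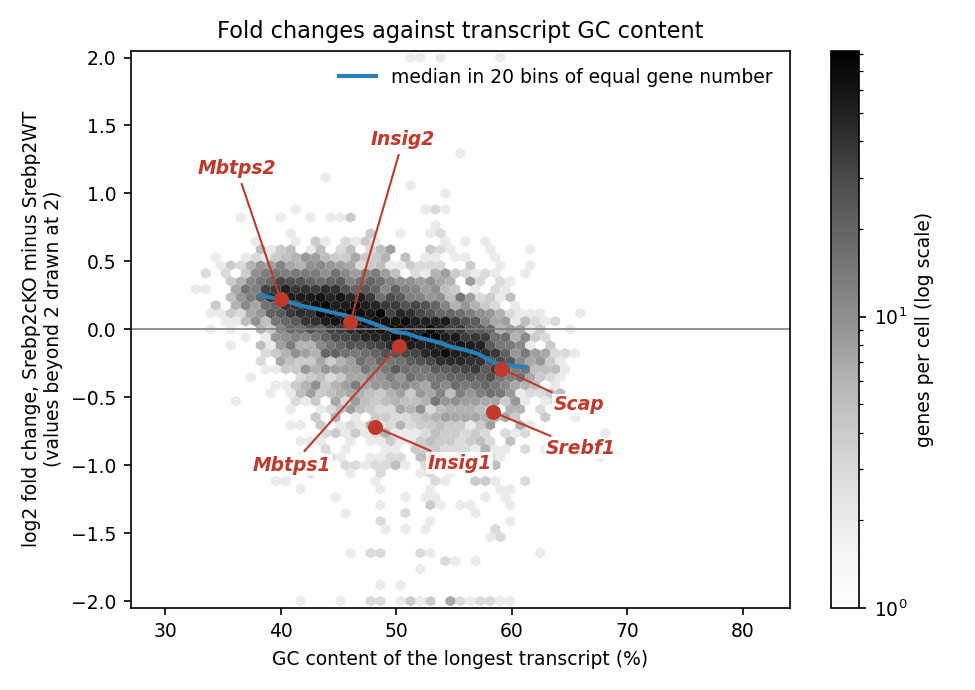
Log2 fold change of all tested genes with a known GC content (y axis, Srebp2cKO minus Srebp2WT, values beyond 2 drawn at 2) against the GC content of the longest transcript (x axis, %), with the median in bins of equal gene number as a line and 6 of the 7 genes marked (Srebf2, at -3.91, is left out). Mbtps2, Insig2, Mbtps1 and Scap lie near the median line, while Insig1 and Srebf1 lie below it.

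Per kilobase, the order of levels in Srebp2WT libraries was Srebf2 (25.8 ± 1.52 CPM per kilobase), Mbtps1 (17.7 ± 0.497), Insig1 (13 ± 0.780), Srebf1 (11.9 ± 0.773), Scap (10.8 ± 0.549), Insig2 (6.80 ± 0.174) and Mbtps2 (2.36 ± 0.267). Insig1 and Srebf1 overlapped between libraries there, as did Srebf1 and Scap, and the other neighbours in the order were apart. In Srebp2cKO libraries Mbtps1 was highest (16.3 ± 0.849 CPM per kilobase), followed by Scap (8.86 ± 1.57), Insig1 (7.88 ± 0.652), Srebf1 (7.82 ± 2.24) and Insig2 (7.02 ± 0.486), a group whose libraries overlap. Mbtps2 (2.75 ± 0.242) and Srebf2 (1.72 ± 0.217) came last in Srebp2cKO. Among 11459 tested genes with a known exon length, Srebf2 stood at the 20.7th percentile per kilobase in Srebp2cKO and at the 85.5th in Srebp2WT libraries. Mbtps1 stood at the 74.4th and 77.1th percentile in the same order. Merged exon length counts every annotated transcript, so a gene with long rare transcripts is set too low on this scale.

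Patterns over the 6 libraries were compared as the root mean square difference of log2 CPM after each gene was centred on its mean. On this measure genes that hardly vary lie close, and the distance grows with the gap in fold change. Nearness is therefore a description and does not show shared regulation. Among pairs of the 7, Insig2 and Mbtps1 were closest (0.104) and Srebf2 and Mbtps2 farthest (2.07). Srebf1 was nearer to Scap (0.196) than to Insig1 (0.304). Of 10245 other genes, Scd2, a stearoyl-CoA desaturase, was most like Insig1 (0.0657), with a log2 fold change of -0.69 (edgeR adjusted p = 0.00138), followed by Ptpn3 (0.0736) and Map6 (0.0776). Ttyh2 (0.0527), Abhd17a (0.0673) and Hist1h4h (0.0751) were most like Srebf1, and Slc11a2 (0.0141), Med27 (0.0333) and Cotl1 (0.0344) most like Scap. Nfkbia (0.0150), Dcp2 (0.0202) and Dicer1 (0.0273) were nearest to Insig2. Cstf1 (0.0199), Srd5a3 (0.0216) and Zfand3 (0.0234) were nearest to Mbtps1, and Ofd1 (0.0458), Cep57 (0.0477) and Nmd3 (0.0518) to Mbtps2. Tgfb1i1 (0.439) and Apobr (0.488) were among those nearest to Srebf2, which had no close counterpart.

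The genes that act around this machinery were compared in 7 lists of 83 genes, of which 73 were tested. Of these 6 passed (8.22%, against 6.61% of all genes tested), 2 higher and 4 lower, with a median log2 fold change of -0.04. After removal of the GC trend 3 passed, against 5.73% of all genes tested. A share this near the background is not a result about these lists.

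Of 15 genes of INSIG turnover and sterol-dependent degradation 0 passed in edgeR (3 at an unadjusted p under 0.05, 2 lower with DESeq2 and 0 with limma-voom, median log2 fold change -0.07). The smallest p belonged to Syvn1, a ubiquitin ligase of the endoplasmic reticulum, at 41.5 ± 4.31 CPM in Srebp2cKO and 52.1 ± 4.11 CPM in Srebp2WT libraries (log2 fold change -0.33, edgeR adjusted p = 0.0737). Next were Usp20, a deubiquitinase (-0.63, adjusted p = 0.0827), and Ufd1l, a cofactor of the p97 segregase (0.24, adjusted p = 0.0898). Syvn1 and Usp20 were the genes that DESeq2 called (adjusted p = 0.047 and 0.0253), and both passed in edgeR without Srebp2cKO replicate 6 (0.0452 and 0.0465), as did Usp20 with no filter (0.0364). Among 14 COPII coat genes 1 rose, Sec24a, a cargo adaptor, at 157 ± 6.22 CPM in Srebp2cKO and 129 ± 5.52 CPM in Srebp2WT libraries (log2 fold change 0.28, edgeR adjusted p = 0.045). Its call was lost with the GC trend removed (0.15, adjusted p = 0.27), with upper-quartile scaling (0.0552) and scaling to total counts (0.0591). Leaving out any library but Srebp2WT replicate 5 also ended it (adjusted p = 0.0556, 0.061 and 0.123 without Srebp2cKO replicates 6, 7 and 8, and 0.182 and 0.148 without Srebp2WT replicates 1 and 3). The adaptor Sec24d had a log2 fold change of -0.40 and the scaffold Sec16b of -0.59 (adjusted p = 0.0852 and 0.0995).

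Of 6 modulators of SCAP and the site-1 protease, 0 passed in edgeR, DESeq2 or limma-voom, and 0 had an unadjusted p under 0.05. Crtc2 (-0.19), Hsp90aa1 (0.35) and Paqr3 (-0.28) had the smallest p among them. These values moved in both directions when 1 library was left out. Hsp90aa1 ran from 0.01 (without Srebp2cKO replicate 7) to 0.61 (without Srebp2WT replicate 5), and was 0.11 without Srebp2WT replicate 1. Paqr3 ran from -0.43 (without Srebp2cKO replicate 6) to -0.09 (without Srebp2cKO replicate 7). Crtc2 moved less, from -0.25 (without Srebp2cKO replicate 6 or Srebp2WT replicate 5) to -0.11 (without Srebp2cKO replicate 8). Of 15 nuclear cofactors and turnover genes 1 fell, Med15, a Mediator subunit that binds SREBPs. Med15 stood at 80.9, 63.7 and 66.3 CPM in Srebp2cKO and 101, 92.9 and 86.2 CPM in Srebp2WT libraries, without overlap (log2 fold change -0.41, edgeR adjusted p = 0.0436). Its call held with the GC trend removed (-0.48, adjusted p = 0.0304) and was lost without Srebp2cKO replicate 7 or 8 and without Srebp2WT replicate 1 or 3 (adjusted p = 0.117, 0.12, 0.175 and 0.136). Sirt1, a deacetylase (0.42), and Sp3, a factor that binds GC boxes (0.33), did not pass in edgeR (adjusted p = 0.0628 and 0.0751). DESeq2 called both higher (adjusted p = 0.0205 and 0.0279) beside 1 gene lower, and limma-voom called 0 higher and 1 lower. In edgeR both passed without Srebp2cKO replicate 6 (0.0288 and 0.0284), and Sirt1 also without Srebp2WT replicate 5 (0.0438) and with no filter (0.0356). Removing the GC trend left 0.29 for Sirt1 and 0.10 for Sp3.

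Of 10 other substrates of the site-1 and site-2 proteases 6 were tested and none passed in edgeR (4 at an unadjusted p under 0.05, 0 with DESeq2 and 0 with limma-voom). The values were -0.47 for Creb3l2, -0.27 for Atf6b and -0.41 for Atf6, the stress sensors cut by the same proteases (edgeR adjusted p = 0.081, 0.0858 and 0.102). Atf6b was at -0.01 with the GC trend removed, and Creb3l2 passed without Srebp2cKO replicate 6 (adjusted p = 0.0409). Of 9 other proteins with a sterol-sensing domain, the module through which SCAP binds INSIGs, 5 were tested. All 5 had negative log2 fold changes (median -0.38), and 3 fell. Among them were Ptch1, the Hedgehog receptor, at 47.0 ± 2.66 CPM in Srebp2cKO and 64.4 ± 6.21 CPM in Srebp2WT libraries (log2 fold change -0.45, edgeR adjusted p = 0.0238), and Dhcr7, the last enzyme of one branch of cholesterol synthesis (-0.38, adjusted p = 0.0373). Under removal of the GC trend Ptch1 kept its call (adjusted p = 0.0126) and Dhcr7 lost it (0.0563). Dhcr7 also lost its call without Srebp2cKO replicate 7 or 8 (adjusted p = 0.09 and 0.103) and without Srebp2WT replicate 1, 3 or 5 (0.126, 0.117 and 0.0611). Ptch1 lost its call without Srebp2cKO replicate 7 and without Srebp2WT replicate 1 or 3 (adjusted p = 0.0633, 0.11 and 0.101).

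Of 14 receptor and kinase inputs 12 were tested and 1 rose, Prkaa1, a catalytic subunit of AMP-activated kinase, at 105 ± 14.3 CPM in Srebp2cKO and 78.7 ± 6.64 CPM in Srebp2WT libraries (log2 fold change 0.41, edgeR adjusted p = 0.0488). That call was lost with RLE scaling (adjusted p = 0.0515), scaling to total counts (0.0624), limma-voom (0.0509) and the GC trend removed (0.172). It was also lost without Srebp2cKO replicate 7 or 8 (adjusted p = 0.144 and 0.111) and without Srebp2WT replicate 1, 3 or 5 (0.2, 0.131 and 0.0546). Tsc2, which restrains mTORC1, had a log2 fold change of -0.27, and Nr1h2, the liver X receptor beta that induces Srebf1 when bound by oxysterols, of -0.31 (adjusted p = 0.0727 and 0.073). DESeq2 called Nr1h2 (adjusted p = 0.0479), and edgeR did without Srebp2cKO replicate 6 (0.0366). Nr1h2 was at -0.05 and Tsc2 at -0.15 with the GC trend removed.

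Genes activated by nuclear SREBPs were counted last. Of 22 textbook targets in cholesterol synthesis and uptake 21 were tested and 13 fell, while 1 had a positive log2 fold change (median -0.69), against 4.24% of all tested genes called lower. With the GC trend removed 11 fell, against 3.80% of all genes. Of 12 in fatty acid synthesis 9 were tested and 4 fell (median -0.25), and likewise 4 with the GC trend removed. Together with the machinery lists, 21 of 101 tested genes passed (20.8%, against 6.61% of all genes tested), and 17 with the GC trend removed. The number was 11 without Srebp2WT replicate 3, 12 without Srebp2WT replicate 1 and 27 without Srebp2cKO replicate 6, where 184, 167 and 1487 of all genes passed. Sqle, squalene epoxidase, fell to 0.677 ± 0.513 CPM in Srebp2cKO, against 14.9 ± 2.04 CPM in Srebp2WT libraries. Scd2 fell to 99.3 ± 9.06 CPM in Srebp2cKO, against 161 ± 4.06 CPM in Srebp2WT libraries. Fasn, fatty acid synthase, and Mid1ip1, which stimulates acetyl-CoA carboxylase, fell by 0.67 and 0.84 on the log2 scale. Mid1ip1 lost its call without Srebp2WT replicate 1 or 3 (edgeR adjusted p = 0.0761 and 0.053). The fall of Insig1, by 0.72, was close to the median of the cholesterol targets, a description that compares no groups.

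**Figure D5:**
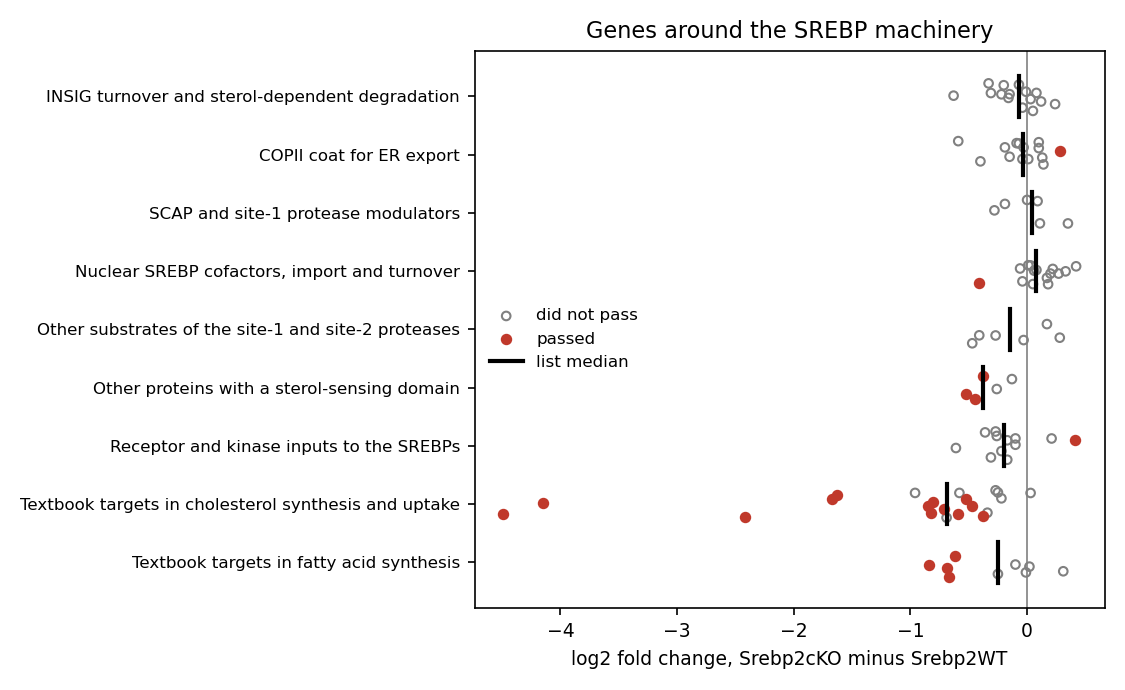
Log2 fold change (x axis, Srebp2cKO minus Srebp2WT) of each tested gene in 9 lists around the SREBP machinery, filled where it passed in edgeR and open where it did not, with the list median as a bar. The target lists at the bottom have medians of -0.69 and -0.25, and most machinery lists lie around 0.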

How the data were processed

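Total RNA was extracted with a Qiagen kit, and a KAPA HyperPrep kit with depletion of ribosomal RNA was used for the libraries, per the labels' protocols. The authors deposited raw counts per gene symbol, 1 column per library, matched to samples by title. The submitters' processing notes name HISAT2 2.2.1, mm10 and Cell Ranger without their roles. The sources used here do not give the counting tool, annotation, strand setting or filters, and counts of overlapping genes are therefore uncertain. No row stood for anything but a gene. Pairs of libraries within a genotype differed by more than sampling noise (chi-square over degrees of freedom 6.71 to 34.8), so none was taken for a library deposited again. This does not show that they came from separate animals.

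Genes were kept by filterByExpr, scaled with TMM factors and tested over the whole table in edgeR 4.0.16 (quasi-likelihood F test, R 4.3.3), Srebp2cKO minus Srebp2WT with no covariate, with Benjamini-Hochberg adjustment over all 11932 genes and a threshold of 0.05. The SE is the log2 fold change divided by the square root of F. Alternatives were DESeq2 1.42.0, limma-voom (limma 3.58.1), other scalings and filters, a robust fit and leaving out each library. Another fitted log2 CPM on transcript GC in each library by loess (span 0.3) and used the trend as offsets. Exon lengths, positions and GC came from GENCODE M21 (GRCm38). Ratios within a library were compared by exact permutation. Named genes were the 7 genes, Foxp3, up to 3 genes with the smallest p from each list, and the 3 genes most like each of the 7 in pattern, leaving out predicted models and receptor segments. Fold changes with no tool named are edgeR's. The genes and lists were chosen with earlier results of these data known. The results of some genes that the rule names are not reported here.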

Additional observations from a re-analysis of the deposited data

How the results depend on the processing

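Insig1 and Srebf2 kept their direction and call in all 15 settings tried, and in 6 added after the data were seen, which removed the GC trend and left out 1 library each. Insig2, Mbtps1 and Mbtps2 passed in none of these. Srebf1, which missed the threshold, passed with scaling to total counts (-0.65), DESeq2 (-0.61), limma-voom (-0.66) and no filter (-0.62). Its log2 fold change ranged from -0.84 to -0.44 with 1 library left out and from -0.57 to -0.28 when the GC trend was removed as well. Among these fits it passed only without Srebp2cKO replicate 6, both as fitted (edgeR adjusted p = 0.00931) and with the GC trend removed (0.0191). Scap ranged from -0.41 to -0.17 with 1 library left out. All genes called numbered 1404 with DESeq2, 1205 with no filter, 1893 at a false discovery rate of 0.1, 167 to 1487 with 1 library left out and 264 to 779 with the GC trend removed as well (396 without Srebp2cKO replicate 6, 306 without Srebp2cKO replicate 7, 280 without Srebp2WT replicate 1), against 789. Genes called in the 9 lists numbered 35 at a false discovery rate of 0.1, 11 (without Srebp2WT replicate 3) to 27 (without Srebp2cKO replicate 6) with 1 library left out, and 13 to 18 with the GC trend removed as well, against 21. The difference in the ratio of INSIG to Scap was -0.475 with the GC trend removed and -0.316 to 0.0831 with 1 library left out, against -0.102. The difference in the ratio of SREBP genes to Scap was -2.28 from plain counts, which are not divided by exon length, against -2.42 per kilobase. The causes of the other differences between settings were not tested. No paired analysis was possible because the genotypes share no replicate number. With 3 libraries in each genotype, the exact permutation test cannot go below 0.1.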
